A study of Mus musculus with 12 samples.

Results

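The 44 genes described here encode the enzymes that feed and run the tricarboxylic acid (TCA) cycle and those that oxidise fatty acids. They were chosen by name and role from the 23479 gene symbols counted, with earlier results of these data known, and fall into 7 groups. The groups are the pyruvate dehydrogenase complex (4 genes), the TCA cycle (12), feeder and cytosolic enzymes (5), fatty acid activation (4), the carnitine shuttle (3), beta-oxidation (13) and the electron transfer flavoprotein (3). The succinate dehydrogenase subunits are not among the 44 and are given with the related genes.

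RNA was measured in splenic CD4+ T cells of C57BL/6J mice (WT) and of Sirt2-/- mice on a C57BL/6 background (KO), which lack the NAD-dependent deacetylase SIRT2. The labels describe neither the deleted part of the gene nor any tissue-specific driver. RNA was extracted from part of the cells right after isolation (0 h) and from others once they had been cultured for 24 h in RPMI 1640 medium with fetal bovine serum, on plates coated with anti-CD3 (clone 145-2C11) at 5 µg/ml. No other agent was named. Each pairing of genotype and time, such as WT 0 h or KO 24 h, had 3 libraries. The labels give neither the age nor the sex of the mice and do not state that replicates were separate animals, so p-values speak only of the variation among these libraries, part of which may be technical. No unstimulated culture of 24 h was analysed here, so anti-CD3 and time in culture cannot be told apart, and the changes below are those of both together.

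Pyruvate and fatty acids both reach the TCA cycle as acetyl-CoA. Pyruvate is converted by the pyruvate dehydrogenase complex in the mitochondrial matrix. Fatty acids are first bound to coenzyme A, carried into the matrix as carnitine esters and shortened by repeated rounds of dehydrogenation, hydration, oxidation and thiolysis. Resting T cells are known to draw on oxidation of both fuels, and activated T cells to raise glycolysis and glutamine use and to draw citrate out of mitochondria for lipid synthesis. The title of the series places Sirt2 in the metabolism of T cells. Counts of transcripts measure neither the amount nor the acetylation or activity of an enzyme.

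Libraries held 3.63 to 10.0 megareads in genes, and depth was lowest in KO 24 h, at 3.63 to 5.33. Between 7750 and 22454 reads per library fell in the 44 genes. Levels are CPM, that is counts divided by the library size after scaling with TMM factors. Sirt2 measured 62.3 to 85.4 CPM in the WT libraries and 9.04 to 19.7 CPM in those of KO, so every library fitted its label. All 10 markers of CD4 T cells were read in every group, with summed levels of 6540 to 7650 CPM at 0 h and 3440 to 3900 CPM at 24 h. The first principal component of all genes held 61.5% of the variance and parted the 0 h from the 24 h libraries.

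All 44 genes passed the filter on low counts, of 10981 genes in all that did. Per kilobase of exon, Ogdh stood highest in WT 0 h at 57.6 ± 1.97 CPM per kb (SD, n = 3), followed by Idh3g at 46.6 ± 3.12. Acly at 39.4 ± 3.49 and Mdh1 at 38.9 ± 1.99 came next and differed by less than their SDs, and Mdh2 followed at 34.3 ± 3.71. At the other end stood Acsl1 at 0.866 ± 0.228, Idh1 at 0.808 ± 0.184 and Pcx at 0.657 ± 0.157 CPM per kb, which also lay within their spread of each other. In WT 24 h the highest 3 were Acly (41.8 ± 4.04), Idh3g (39.8 ± 3.94) and Ogdh (39.3 ± 0.143), with no difference beyond their SDs. These orders hold for the length of all annotated exons of a gene together, which exceeds the longest transcript unequally. The lengths were 5456 against 4127 bases for Ogdh, 3562 against 1606 for Mdh2 and 10483 against 5676 for Acsl1. With another length the orders may differ. The coefficient of variation between the libraries of a group had a median over the 44 genes of 10.1% to 11.0%. It reached 95.8% for Pcx in KO 0 h, where 1 library had no Pcx read.

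After 24 h on anti-CD3 far more of these transcripts had fallen than risen. In WT cells 16 of the 44 genes fell, 3 rose and 25 did not pass (edgeR quasi-likelihood test, Benjamini-Hochberg adjusted p below 0.05). That is 43.2% of the genes called, 36.4% lower and 6.82% higher, where 40.7% of all 10981 tested genes were called, 20.5% lower and 20.2% higher. In KO cells 14 fell, 1 rose and 29 did not pass, or 34.1% called against 40.4% of all genes, with 31.8% lower against 21% and 2.27% higher against 19.4%. The share called was therefore near that of all genes in WT and lower than it in KO, and the share higher was below it in both. The median log2 change was -0.25 in WT and -0.223 in KO, beside medians over all genes of 0.0027 and -0.00279. Between the times 24 genes did not overlap in WT, or 54.5% beside 49.3% of all genes, with 18 all lower (24.8% of all genes) and 6 all higher (24.6%). In KO 52.3% of the genes did not, beside 49.4% of all, with 18 all lower (25.5% of all genes) and 5 all higher (23.9%). These 2 comparisons share no library, and 13 genes fell and 1 rose in both.

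Summed over the 44 genes, the level was 2390 ± 40.9 CPM in WT 0 h and 2010 ± 128 in WT 24 h (SD, n = 3), or 84.1%. In KO it was 2400 ± 18.4 and 1980 ± 120, or 82.5%. No 24 h library reached the lowest 0 h library of its genotype. The carnitine shuttle kept 59.3% of its 0 h sum in WT and 54.0% in KO, the beta-oxidation enzymes 75.0% and 72.3%, and the TCA cycle enzymes 80.1% and 80.9%, in each case without overlap between 24 h and 0 h libraries. Fatty acid activation went the other way, to 137% of its 0 h sum in WT and 126% in KO, also without overlap. These sums weigh genes by their level. The carnitine shuttle sum was mostly Cpt1a, at mean CPM of 85.7 (0 h) and 38 (24 h) in WT and 109 and 48.3 in KO. Cpt2 (10.5 and 11.5 in WT, 12.7 and 10.3 in KO) and Slc25a20 (14.5 and 16.3, 14.8 and 15.4) were not called. The only called gene of fatty acid activation was Acsl4, at 39.4 and 72.2 in WT and 43.6 and 75.9 in KO. The sums of the pyruvate dehydrogenase complex, the feeder enzymes and the electron transfer flavoprotein overlapped between the times. In bulk RNA, fewer cells of a type and less RNA per cell cannot be told apart.

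**Figure D1:**
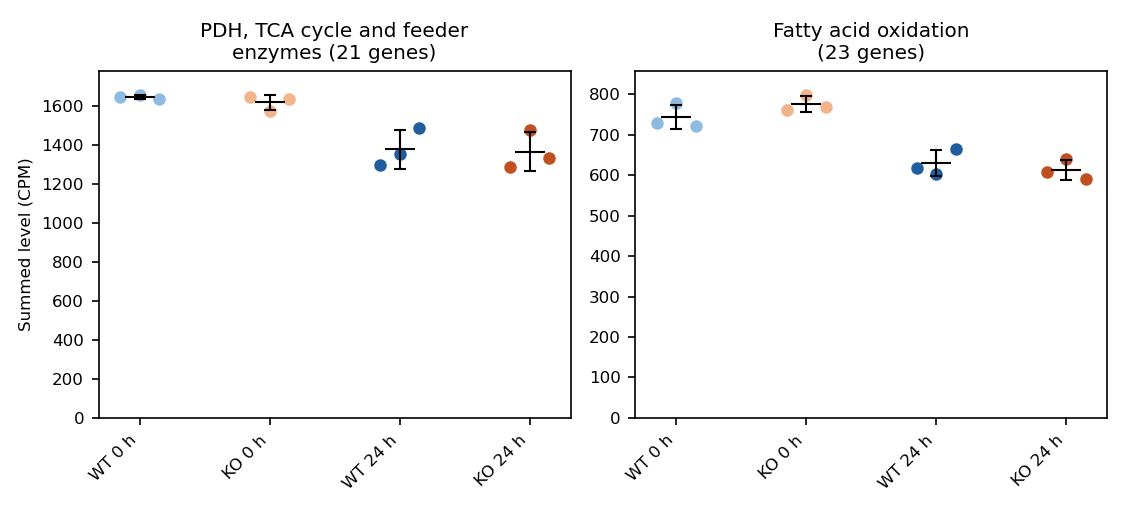
Summed level in CPM (y axis, from 0) of the 21 genes of pyruvate dehydrogenase, TCA cycle and feeder enzymes (left) and of the 23 genes of fatty acid oxidation (right) in each of the 12 libraries (points), with the mean and SD of each group (black). In both panels the 24 h libraries lie below all 0 h libraries, and the genotypes overlap or lie close together at each time.

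Markers of other cell types were lower at 24 h as well. Summed CD8 markers went from 17.3 to 18.5 CPM in WT 0 h to 8.09 to 11.0 in WT 24 h, and from 30.8 to 35.8 to 8.79 to 14.7 in KO. Nearly all of these sums was Cd8b1, since Cd8a reached at most 2.26 CPM in a library. B cell markers went from at least 16.8 CPM in every 0 h library to at most 7.22 in every 24 h library, and NK markers from at least 25.1 to at most 5.97. Myeloid markers stood at 5.23 to 17.9 CPM and overlapped between the times in WT but not in KO. The globin genes were at 0 in all libraries. The share of Rn45s, the ribosomal RNA precursor, in gene reads went from 14.5% ± 1.42 to 9.12% ± 0.416 in WT and from 14.7% ± 2.51 to 8.03% ± 0.106 in KO (SD, n = 3). With Rn45s left out of the library sizes, 19 genes were called in WT and 15 in KO, as many as with it. The part of the other cell types in these changes was not tested.

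**Figure D2:**
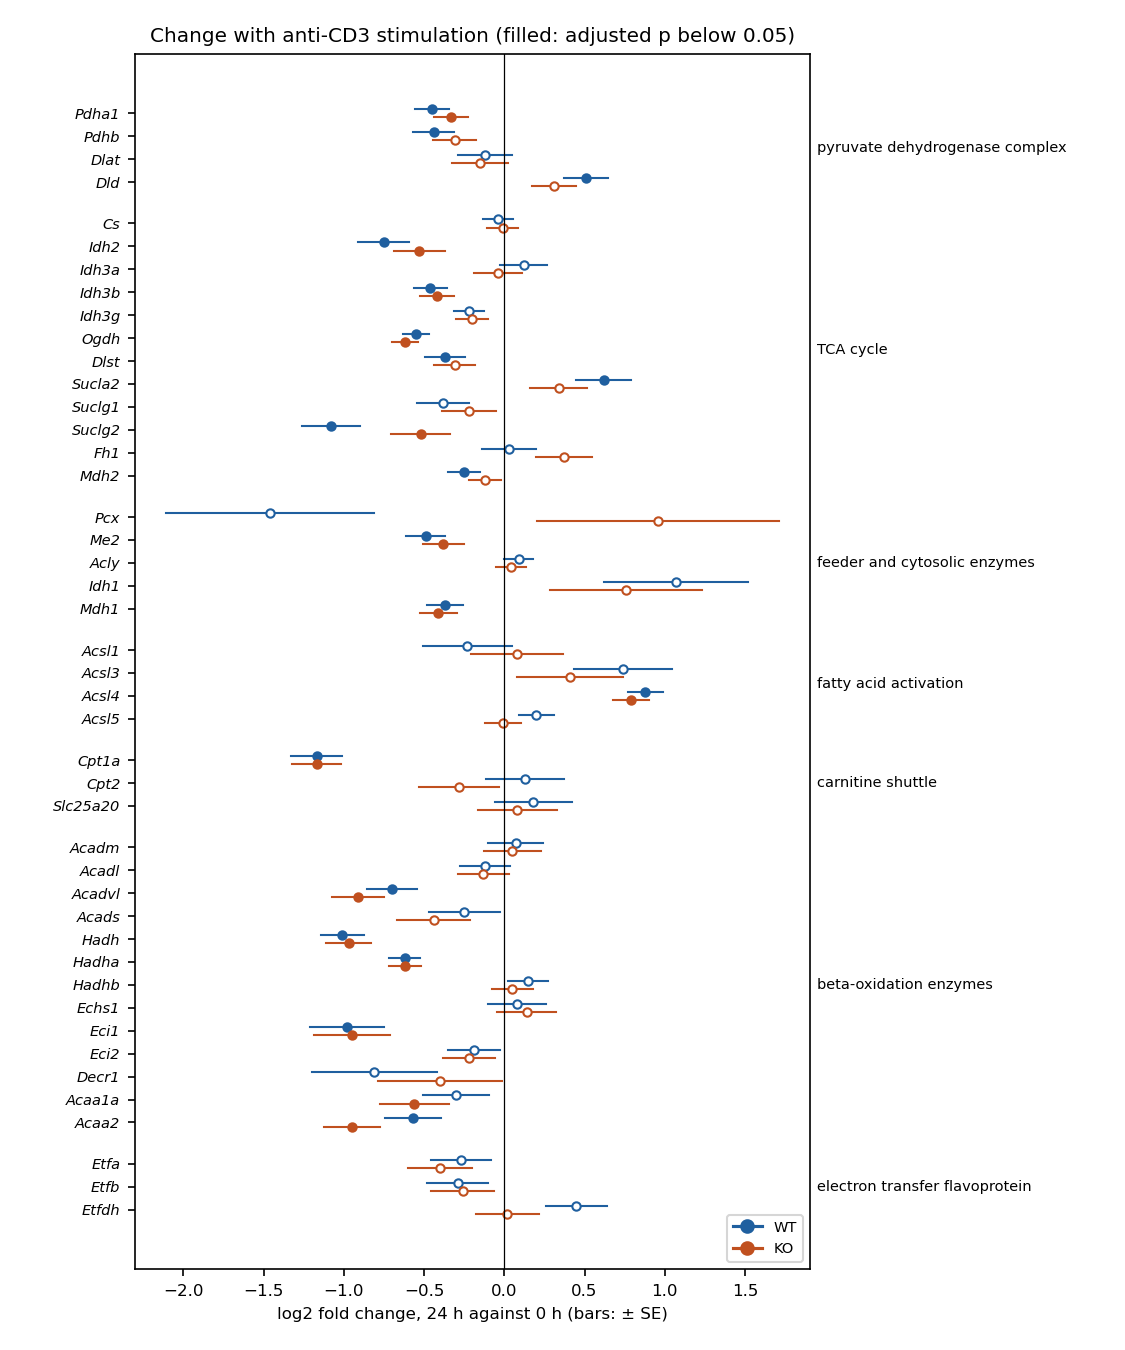
Log2 fold change at 24 h against 0 h (x axis) of each of the 44 genes (y axis, by enzyme group) in WT (blue) and KO (orange), with bars of 1 SE. Filled points have an adjusted p below 0.05. Most filled points lie left of 0, at -1.17 for Cpt1a in both genotypes, and those right of 0 are Acsl4 in both and Sucla2 and Dld in WT.

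The pyruvate dehydrogenase complex joins pyruvate to coenzyme A. Transcripts of its catalytic E1 subunits fell in WT. That of Dld, the dihydrolipoyl dehydrogenase that this complex shares with the 2-oxoglutarate dehydrogenase complex, rose. Pdha1, the E1 alpha subunit, measured 112, 104 and 101 CPM in WT 0 h and 70.9, 75.4 and 84.7 in WT 24 h (log2 -0.45, SE 0.104, edgeR adjusted p = 0.000432). The KO libraries had 81.6, 104 and 99.4 CPM at 0 h and 75.2, 78.6 and 71.9 at 24 h (log2 -0.33, SE 0.107, edgeR adjusted p = 0.0117). The times did not overlap in either genotype, but 16.1% of the exon length of Pdha1 overlaps Map3k15 on the opposite strand. Without KO 0 h replicate 2 the KO change was -0.23 and was not called (edgeR adjusted p = 0.124), nor was it without KO 0 h replicate 3 (-0.27, adjusted p = 0.0686) or KO 24 h replicate 3 (-0.30, adjusted p = 0.0546). Pdhb, the E1 beta subunit, changed by -0.44 in WT (SE 0.129, edgeR adjusted p = 0.00469) and by -0.31 without a call in KO (edgeR adjusted p = 0.0552). The WT call was lost without WT 24 h replicate 2 (-0.32, adjusted p = 0.0746), and leaving out KO 24 h replicate 2 or 3 brought the KO value to an adjusted p of 0.034 or 0.0444, as did upper quartile scaling (0.0259).

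Dld measured 40.4, 29.6 and 36.8 CPM in WT 0 h and 47.0, 48.6 and 55.8 in WT 24 h, so every 24 h library was above every 0 h library. The rise was 0.51 on the log2 scale (SE 0.136, edgeR adjusted p = 0.00217). KO libraries had 34.5, 36.8 and 34.1 CPM at 0 h and 41.0, 50.2 and 38.6 at 24 h, again without overlap, and a log2 change of 0.31 that did not pass (SE 0.140, edgeR adjusted p = 0.0783). The difference between the 2 changes was -0.20 (95% interval -0.60 to 0.19, edgeR adjusted p = 1). Dlat, the E2 core, had changes of -0.12 and -0.15 and did not pass.

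Within the TCA cycle of WT cells the transcripts of the beta subunits of the succinyl-CoA ligases moved in opposite directions. Both forms share the subunit of Suclg1 and differ in the nucleotide they make, ATP with the beta subunit of Sucla2 and GTP with that of Suclg2. Sucla2 measured 15.1, 18 and 17.5 CPM in WT 0 h and 27.1, 26.6 and 24.1 in WT 24 h. Suclg2 measured 35.3, 25.4 and 28.8 CPM in WT 0 h and 14.5, 13.5 and 14.2 in WT 24 h. Neither gene had overlapping times, and the log2 changes were 0.62 for Sucla2 (SE 0.171, edgeR adjusted p = 0.00308) and -1.08 for Suclg2 (SE 0.178, edgeR adjusted p = 2.31e-06).

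In KO, Sucla2 had 17.8, 18.1 and 14.3 CPM at 0 h and 21, 21.5 and 21.1 at 24 h, all higher, with a log2 change of 0.34 that did not pass (edgeR adjusted p = 0.129). Suclg2 had 22.0, 23.9 and 21.1 CPM at 0 h and 14.3, 18.3 and 13.7 at 24 h, all lower (log2 -0.52, SE 0.184, edgeR adjusted p = 0.0201). That call was lost without KO 0 h replicate 2 (-0.45, adjusted p = 0.0831), without KO 24 h replicate 1 (-0.46, adjusted p = 0.0884) and without KO 24 h replicate 3 (-0.45, adjusted p = 0.0882). Suclg2 is an uncertain gene in one respect, since 38.7% of its transcript is nearly identical to the pseudogene Gm15163. The ratio of Suclg2 to Sucla2 CPM went from 1.80 ± 0.488 to 0.544 ± 0.0415 in WT and from 1.34 ± 0.121 to 0.726 ± 0.111 in KO (SD, n = 3). It is a ratio chosen after the values were seen and was not tested. Suclg1 changed by -0.38 in WT and -0.22 in KO and was not called in either (edgeR adjusted p = 0.0575 and 0.3), although without WT 0 h replicate 1 the WT change of -0.47 passed (adjusted p = 0.0326), as it did at -0.44 with upper quartile scaling (adjusted p = 0.0255).

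The regions around the start sites of this pair are shown because the genes moved apart. They are RefSeq's, on build GRCm38.p6, from 250 bases before to 50 after the start, and capitals mark GC boxes (GGGCGG) and CCAAT boxes (CCAAT) on either strand. Suclg2 is at chr6:95718797-95719096 on the minus strand and Sucla2 at chr14:73552536-73552835 on the plus strand. Suclg2 has several GC boxes and a CCAAT box, and Sucla2 has a single GC box.
Suclg2: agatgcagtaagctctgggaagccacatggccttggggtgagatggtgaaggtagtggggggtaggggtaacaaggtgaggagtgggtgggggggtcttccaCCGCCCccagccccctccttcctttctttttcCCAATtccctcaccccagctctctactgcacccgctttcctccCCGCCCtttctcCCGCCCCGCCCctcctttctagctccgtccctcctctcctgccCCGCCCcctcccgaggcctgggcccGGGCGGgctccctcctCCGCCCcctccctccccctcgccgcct
Sucla2: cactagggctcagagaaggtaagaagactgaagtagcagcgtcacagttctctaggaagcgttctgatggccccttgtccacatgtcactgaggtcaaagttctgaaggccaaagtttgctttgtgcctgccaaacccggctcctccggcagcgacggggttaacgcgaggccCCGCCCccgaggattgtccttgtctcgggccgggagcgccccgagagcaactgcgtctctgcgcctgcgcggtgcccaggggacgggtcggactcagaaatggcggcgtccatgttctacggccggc

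Ogdh, the E1 subunit of the 2-oxoglutarate dehydrogenase complex, fell in both genotypes. It measured 303, 324 and 316 CPM in WT 0 h and 213, 215 and 215 in WT 24 h (log2 -0.55, SE 0.0812, edgeR adjusted p = 2.31e-07). In KO it measured 360, 326 and 333 CPM at 0 h and 218, 233 and 211 at 24 h (log2 -0.62, SE 0.0818, edgeR adjusted p = 2.06e-08). No 24 h library came near a 0 h library in either genotype. Dlst, the E2 subunit of that complex, changed by -0.37 in WT (edgeR adjusted p = 0.0159) and by -0.31 in KO (edgeR adjusted p = 0.051). Its WT call was lost without WT 0 h replicate 2 (-0.28, adjusted p = 0.108) and without WT 24 h replicate 1 (-0.23, adjusted p = 0.17), and its KO value passed without KO 0 h replicate 3 (adjusted p = 0.0474) and without KO 24 h replicate 2 (adjusted p = 0.0116). With a replicate block the KO change of -0.32 was also called (adjusted p = 0.0469), as was the -0.35 of upper quartile scaling (adjusted p = 0.023).

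The isocitrate dehydrogenases split. Idh2, the NADP-dependent enzyme of the matrix, measured 33.3, 28.5 and 32.2 CPM in WT 0 h and 16.3, 18.9 and 20.1 in WT 24 h (log2 -0.75, SE 0.159, edgeR adjusted p = 0.000133). In KO it had 36.7, 30.7 and 33.9 CPM at 0 h and 20.9, 22.2 and 27.6 at 24 h (log2 -0.53, SE 0.160, edgeR adjusted p = 0.00645). All 24 h libraries were lower in both, and the KO call was lost without KO 0 h replicate 1 (-0.43, adjusted p = 0.0543) or KO 24 h replicate 1 (-0.45, adjusted p = 0.052). Of the NAD-dependent enzyme, the subunit gene Idh3b fell by 0.46 in WT and 0.42 in KO on the log2 scale (edgeR adjusted p = 0.000407 and 0.00118). Its catalytic subunit gene Idh3a had changes of 0.12 and -0.04 and Idh3g of -0.22 and -0.20, none of them called. Idh3g came below 0.05 without WT 0 h replicate 2 (adjusted p = 0.0404) and without KO 24 h replicate 2 (adjusted p = 0.0494), and in both genotypes with upper quartile scaling (adjusted p = 0.0133 and 0.0391).

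Cs, the citrate synthase at the entry of the cycle, was among the steadiest genes. It measured 155, 139 and 135 CPM in WT 0 h and 126, 139 and 151 in WT 24 h, with changes of -0.04 in WT (95% interval -0.24 to 0.15) and -0.01 in KO (-0.21 to 0.18). Fh1, the fumarase, had changes of 0.03 and 0.37 and did not pass, although without KO 0 h replicate 3 the KO change of 0.47 did (edgeR adjusted p = 0.0485). Mdh2, the mitochondrial malate dehydrogenase, fell by 0.25 in WT (edgeR adjusted p = 0.0362), with overlapping libraries, and changed by -0.12 in KO without a call. Leaving out WT 0 h replicate 1 or 2 or WT 24 h replicate 1 or 2 ended the WT call, with adjusted p of 0.0851, 0.256, 0.0819 and 0.222. It was also lost with DESeq2 (adjusted p = 0.056) and without a filter on low counts (adjusted p = 0.0699).

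Among feeder and cytosolic enzymes, Mdh1 and Me2 fell and Acly, Idh1 and Pcx did not pass. Me2, the mitochondrial malic enzyme, changed by -0.49 in WT (edgeR adjusted p = 0.00108) and by -0.38 in KO (edgeR adjusted p = 0.0137). Mdh1, the cytosolic malate dehydrogenase, changed by -0.37 in WT (edgeR adjusted p = 0.00694) and by -0.41 in KO (edgeR adjusted p = 0.00339). Both genes had no overlap between the times in either genotype. Some of these calls were lost when a library was left out. Mdh1 lost its call without WT 24 h replicate 1 (adjusted p = 0.0566) or 2 (adjusted p = 0.0772) and without KO 0 h replicate 1 (adjusted p = 0.0799), and Me2 in KO without KO 0 h replicate 1 (adjusted p = 0.0663), KO 24 h replicate 1 (adjusted p = 0.0519) or KO 24 h replicate 2 (adjusted p = 0.0746).

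Acly, the ATP citrate lyase that makes cytosolic acetyl-CoA, stayed near its starting level, with 193, 202 and 229 CPM in WT 0 h and 209, 208 and 245 in WT 24 h. Its changes were 0.09 in WT (95% interval -0.10 to 0.27) and 0.04 in KO (-0.14 to 0.23). Idh1, the cytosolic NADP-dependent isocitrate dehydrogenase, was low, at 2.42, 1.66 and 2.63 CPM in WT 0 h and 3.01, 6.31 and 4.60 in WT 24 h. All its 24 h libraries were higher, the change was 1.07 (SE 0.450, edgeR adjusted p = 0.0525), and it passed without WT 24 h replicate 1 (1.29, adjusted p = 0.0303) and with only the WT groups in the fit (1.08, adjusted p = 0.0437). Pcx, the pyruvate carboxylase that refills oxaloacetate, had 3.98, 2.63 and 2.75 CPM in WT 0 h and 1.61, 1.26 and 0.558 in WT 24 h. It did not pass either (log2 -1.46, SE 0.650, edgeR adjusted p = 0.0693), except with only the WT groups in the fit (adjusted p = 0.0297), and in KO it measured 0 to 1.69 CPM at 0 h and 0.995 to 2.27 at 24 h.

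Fatty acid activation held the clearest rise. Acsl4, the acyl-CoA synthetase that prefers arachidonic and other long polyunsaturated acids, measured 40.0, 40.6 and 37.5 CPM in WT 0 h and 68.1, 74.2 and 74.4 in WT 24 h (log2 0.88, SE 0.112, edgeR adjusted p = 1.09e-08). In KO it measured 45.2, 44.1 and 41.6 CPM at 0 h and 74.9, 73.2 and 79.6 at 24 h (log2 0.79, SE 0.113, edgeR adjusted p = 1.29e-07). The times were well apart in both genotypes. Acsl5, the other abundant synthetase, had 64.4, 69.3 and 71.7 CPM in WT 0 h and 69.5, 78.3 and 87.3 in WT 24 h and did not pass (log2 0.20 in WT and -0.01 in KO). The ratio of Acsl4 to Acsl5 CPM went from 0.577 ± 0.0493 to 0.926 ± 0.0667 in WT and from 0.597 ± 0.0622 to 1.05 ± 0.156 in KO (SD, n = 3), a description chosen after the values were seen. Acsl3 had a change of 0.74 in WT just outside the threshold (SE 0.306, edgeR adjusted p = 0.0501) and of 0.41 in KO. The WT change of Acsl3 was called at a minimum count of 50 (adjusted p = 0.0419), with only the WT groups in the fit (adjusted p = 0.0392) and with RLE scaling (adjusted p = 0.0495). Acsl1 changed by -0.23 and 0.08 without a call.

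In the carnitine shuttle 1 of 3 genes fell in each genotype, or 33.3%, beside 20.5% of all genes in WT and 21% in KO. Cpt1a, the carnitine palmitoyltransferase of the outer membrane that commits long-chain fatty acids to import, measured 81.1, 99.3 and 76.6 CPM in WT 0 h and 38.4, 39.3 and 36.3 in WT 24 h. KO libraries of this gene had 79.1, 146 and 102 CPM at 0 h and 47.2, 50.3 and 47.3 at 24 h. Every 24 h library lay below every 0 h library of its genotype. The change was the largest called among the 44 genes in both genotypes, -1.17 in WT (SE 0.156, edgeR adjusted p = 6.87e-07) and -1.17 in KO (SE 0.155, edgeR adjusted p = 7.68e-07), and its level at 24 h was 0.443 and 0.445 times that at 0 h. Cpt2, the inner membrane transferase, had changes of 0.13 and -0.28, and Slc25a20, the carnitine and acylcarnitine carrier between them, of 0.18 and 0.08. Neither was called, and 13.3% of the Slc25a20 transcript has near-identical copies elsewhere.

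The start region of Cpt1a, the gene with that change, is RefSeq's chr19:3323051-3323350 on the plus strand of GRCm38.p6, with the same boxes in capitals.
Cpt1a: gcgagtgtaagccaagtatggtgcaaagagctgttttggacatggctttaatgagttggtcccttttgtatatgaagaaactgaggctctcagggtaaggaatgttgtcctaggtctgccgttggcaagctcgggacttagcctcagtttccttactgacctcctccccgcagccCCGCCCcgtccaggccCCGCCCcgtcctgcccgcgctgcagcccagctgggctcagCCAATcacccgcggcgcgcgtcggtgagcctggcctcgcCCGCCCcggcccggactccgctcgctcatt

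Transcripts of beta-oxidation enzymes were called lower for several genes but not for all. Of 13 genes 5 fell in WT and 6 in KO, 0 rose, and 8 and 7 did not pass. Those that fell were 38.5% and 46.2%, beside 20.5% and 21% of all genes, while 20.2% and 19.4% of all genes rose. The short-chain hydroxyacyl-CoA dehydrogenase gene Hadh measured 60.8, 55.4 and 51.8 CPM in WT 0 h and 24.7, 27.8 and 30.1 in WT 24 h (log2 -1.01, SE 0.134, edgeR adjusted p = 2.37e-08). The KO values of Hadh were 52.9, 51.2 and 47.4 CPM at 0 h and 24.9, 29.4 and 22.6 at 24 h (log2 -0.97, SE 0.140, edgeR adjusted p = 1.55e-07). No 24 h library overlapped a 0 h library in either genotype. Eci1, an enoyl-CoA isomerase for unsaturated acids, had 17.1, 16.2 and 17.8 CPM in WT 0 h and 6.23, 8.15 and 11.2 in WT 24 h (log2 -0.98, SE 0.232, edgeR adjusted p = 0.000554). In KO it had 19.7, 14.7 and 20.3 CPM at 0 h and 7.14, 12.6 and 8.46 at 24 h (log2 -0.95, SE 0.237, edgeR adjusted p = 0.00109). Its times did not overlap either.

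The alpha and beta subunits of the trifunctional protein are encoded by Hadha and Hadhb and work as 1 complex on long chains. Their transcripts changed unequally. Hadha measured 135, 152 and 133 CPM in WT 0 h and 92.2, 84.6 and 96.3 in WT 24 h (log2 -0.62, SE 0.0963, edgeR adjusted p = 6.8e-07). KO values of Hadha were 135, 117 and 126 CPM at 0 h and 76.7, 84.6 and 84.8 at 24 h (log2 -0.62, SE 0.0989, edgeR adjusted p = 1.33e-06). All its 24 h libraries were lower. Hadhb measured 46.1, 41.0 and 53.3 CPM in WT 0 h and 54.7, 48.3 and 53.2 in WT 24 h (log2 0.15, 95% interval -0.10 to 0.40, edgeR adjusted p = 0.361), and in KO changed by 0.05 (95% interval -0.20 to 0.31, edgeR adjusted p = 0.773). The intervals of the 2 genes did not overlap, and the Hadha to Hadhb ratio of CPM went from 3.04 ± 0.617 to 1.75 ± 0.0618 in WT and from 2.58 ± 0.418 to 1.62 ± 0.139 in KO (SD, n = 3).

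In RefSeq the 2 genes start 273 bases apart on opposite strands of chromosome 5, and their windows share 228 bases, chr5:30155003-30155230. The Hadha window, chr5:30154931-30155230 on the minus strand of GRCm38.p6, is shown because the genes on its sides moved differently.
Hadha: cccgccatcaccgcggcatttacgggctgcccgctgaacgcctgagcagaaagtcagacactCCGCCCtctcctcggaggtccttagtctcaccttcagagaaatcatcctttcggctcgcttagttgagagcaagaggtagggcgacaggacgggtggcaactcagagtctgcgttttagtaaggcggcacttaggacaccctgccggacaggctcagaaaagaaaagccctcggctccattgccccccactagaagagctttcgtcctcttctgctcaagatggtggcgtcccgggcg

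**Figure D3:**
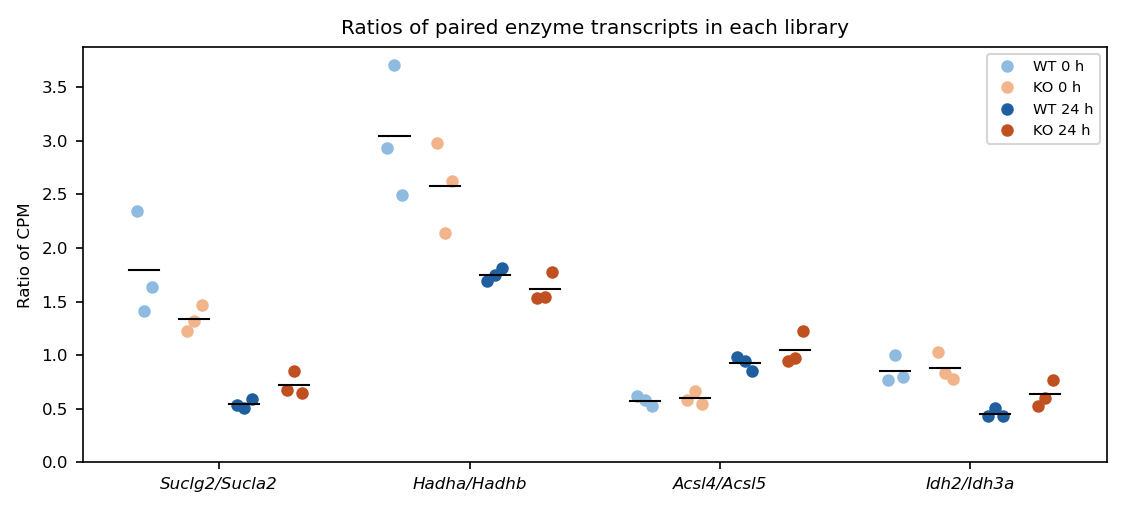
Ratio of CPM (y axis, from 0) for 4 pairs of transcripts in each library (points coloured by group), with the group mean (line). The Suclg2 to Sucla2, Hadha to Hadhb and Idh2 to Idh3a ratios were lower at 24 h and the Acsl4 to Acsl5 ratio higher, with no overlap between the times within a genotype. The pairs were chosen after their values were seen, and no ratio was tested. Of the ratios computed but not drawn, Pdha1 to Pdhb overlapped between the times, with means of 1.73 and 1.71 in WT and 1.63 and 1.64 in KO. Cpt1a to Cpt2 was lower at 24 h, from 8.17 to 3.33 in WT and from 9.86 to 4.72 in KO.

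Acadvl, the very long-chain acyl-CoA dehydrogenase of the first step, had 30.5, 37.7 and 35.0 CPM in WT 0 h and 20.9, 18.3 and 24.6 in WT 24 h (log2 -0.70, SE 0.157, edgeR adjusted p = 0.000292). In KO it had 41.7, 34.2 and 40.7 CPM at 0 h and 21.8, 22.4 and 17.4 at 24 h (log2 -0.91, SE 0.161, edgeR adjusted p = 8.69e-06). It fell without overlap in both, though 42.9% of its exon length overlaps Dvl2 on the opposite strand. The dehydrogenases of medium chains, Acadm (0.07 in WT and 0.05 in KO), of long chains, Acadl (-0.12 and -0.13), and of short chains, Acads (-0.25 and -0.44), did not pass. Echs1, the short-chain enoyl-CoA hydratase, changed by 0.08 and 0.14, Eci2 by -0.19 and -0.22 and Decr1, the 2,4-dienoyl-CoA reductase, by -0.81 and -0.40, none of them called. Decr1 passed without WT 24 h replicate 3 (-1.15, adjusted p = 0.0416), and 21.3% of the Eci2 transcript has near-identical copies.

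Of the thiolases that release acetyl-CoA, the mitochondrial Acaa2 measured 24.1, 26.5 and 25 CPM in WT 0 h and 17.1, 14.1 and 19.8 in WT 24 h (log2 -0.57, SE 0.173, edgeR adjusted p = 0.00623). In KO it measured 32.0, 34.4 and 38.6 CPM at 0 h and 15.9, 16.3 and 22.6 at 24 h (log2 -0.95, SE 0.174, edgeR adjusted p = 1.73e-05). The times did not overlap, and the WT call was lost without WT 24 h replicate 2 (-0.44, adjusted p = 0.071). Acaa1a, the peroxisomal thiolase, had 18.2, 17.3 and 16.0 CPM in KO 0 h and 11.9, 10.5 and 12.9 in KO 24 h (log2 -0.56, SE 0.215, edgeR adjusted p = 0.0353). In WT it had 11.8, 20.4 and 16.3 CPM and then 13.3, 13.0 and 13.4, which overlapped (log2 -0.30, edgeR adjusted p = 0.26). The KO call held only narrowly: it was lost with DESeq2 (adjusted p = 0.0571) and without a filter on low counts (adjusted p = 0.0663). It was also lost without KO 0 h replicate 1 (adjusted p = 0.122) or 2 (adjusted p = 0.082) and without KO 24 h replicate 1 (adjusted p = 0.0773) or 2 (adjusted p = 0.13). Its transcript is nearly identical to that of Acaa1b over 34.1% of its length, and the difference between the genotypes' changes was -0.26 (95% interval -0.86 to 0.34).

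The electron transfer flavoprotein passes electrons from the acyl-CoA dehydrogenases to the respiratory chain. Its subunit genes Etfa (-0.27 in WT and -0.40 in KO) and Etfb (-0.29 and -0.26) did not pass. Leaving out KO 24 h replicate 2 brought Etfa in KO to -0.61 (adjusted p = 0.033). Etfa has a near-identical pseudogene over 17.5% of its transcript, and 53.0% of the exon length of Etfb overlaps Gm45233. Etfdh, the ubiquinone oxidoreductase that takes over the electrons, had 12.8, 17.9 and 17.8 CPM in WT 0 h and 25.7, 21.1 and 19.9 in WT 24 h. All 24 h values were higher, and the change of 0.45 lay just outside the threshold (SE 0.188, edgeR adjusted p = 0.0532). It passed without WT 0 h replicate 2 or 3 or WT 24 h replicate 3 (adjusted p = 0.0428, 0.0458 and 0.045) and at a minimum count of 50 (adjusted p = 0.0459). In KO, Etfdh changed by 0.02.

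**Figure D4:**
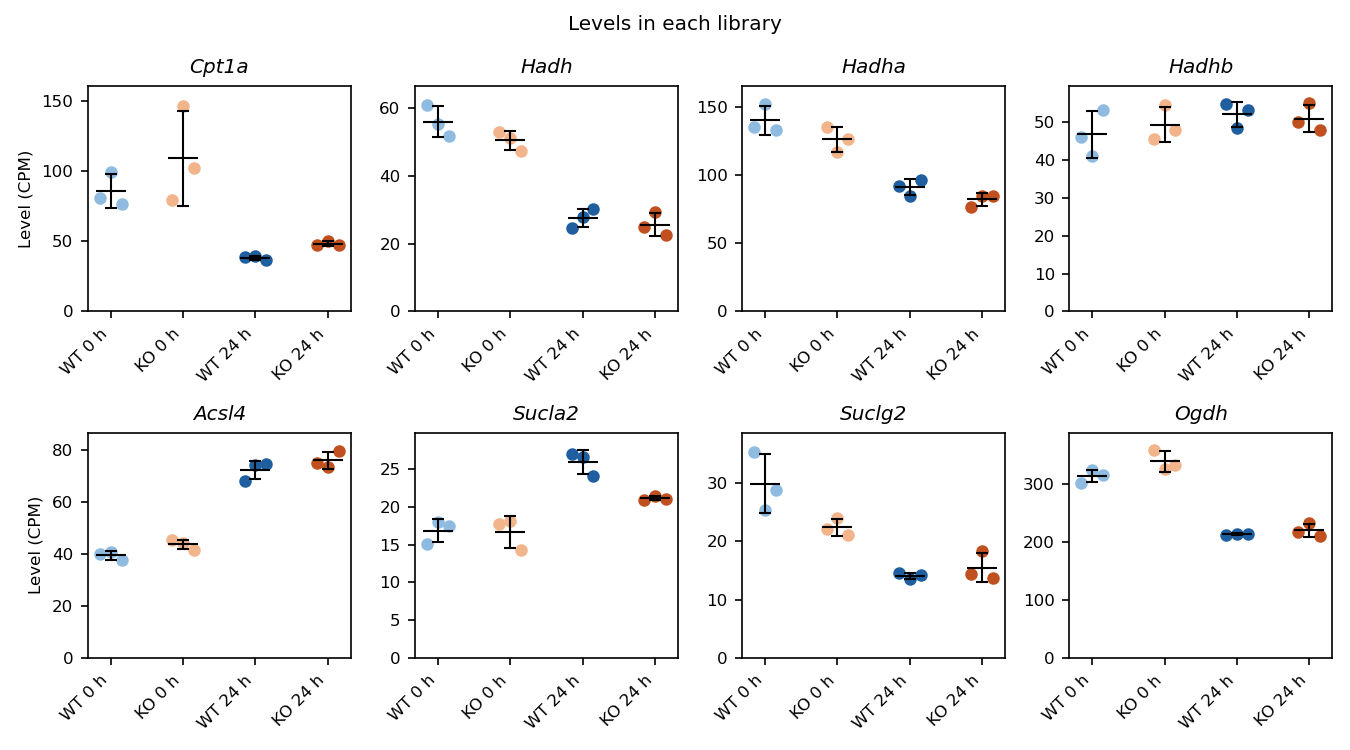
Level in CPM (y axis, from 0) of 8 genes in each of the 12 libraries (points), with the mean and SD of each group (black). Cpt1a, Hadh, Hadha, Suclg2 and Ogdh are lower at 24 h, Acsl4 is higher, Sucla2 is higher but called only in WT, and Hadhb overlaps. One KO 0 h library of Cpt1a stands at 146 CPM, and the genotypes do not overlap for Suclg2, Ogdh and Acsl4 at 0 h or for Cpt1a and Sucla2 at 24 h. None of these differences between genotypes was called, and 12.4% of all genes at 0 h and 12.9% at 24 h did not overlap either.

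Between the genotypes no gene of the 44 was called at 0 h, where 0.346% of all tested genes were, 0.118% higher and 0.228% lower in KO. At an unadjusted p below 0.05 there were 5 of 44 (8% of all genes), DESeq2 called 0, and the median log2 difference was 0.00758 beside 0.00377 over all genes. In 7 genes the genotypes did not overlap, or 15.9% beside 12.4% of all genes, with 3 genes higher in KO (6.04% of all genes) and 4 lower (6.37%). For 28 of the 44 genes the 95% interval of the difference lay within 0.5 of 0 on the log2 scale. A p above the threshold does not show that the levels were equal.

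The 4 genes with the smallest p at 0 h were Acaa2, Pcx, Suclg2 and Cpt1a. Acaa2 was higher in all KO libraries, at 32.0 to 38.6 CPM against 24.1 to 26.5 (log2 0.47, 95% interval 0.14 to 0.80, edgeR adjusted p = 0.361). Pcx was lower in all, at 0 to 1.69 CPM against 2.63 to 3.98 (log2 -1.95, 95% interval -3.34 to -0.56, edgeR adjusted p = 0.367). Suclg2 was lower in all too, at 21.1 to 23.9 CPM against 25.4 to 35.3 (log2 -0.41, 95% interval -0.76 to -0.07, edgeR adjusted p = 0.505). None of these passed after adjustment.

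Cpt1a, at 79.1, 146 and 102 CPM in KO 0 h against 81.1, 99.3 and 76.6 in WT 0 h, overlapped (log2 0.34, 95% interval 0.04 to 0.64, edgeR adjusted p = 0.551). Its value depended on single libraries. Without KO 0 h replicate 1 it was 0.53 and called (edgeR adjusted p = 0.0475), and without KO 0 h replicate 2, the library at 146 CPM, it was 0.07 (edgeR adjusted p = 0.929). Beside these values, the CD8 marker Cd8b1 was higher in KO 0 h, at 30.0 to 33.5 CPM against 17.0 to 17.7 (log2 0.85, edgeR adjusted p = 0.0176). The other CD8 marker, Cd8a, was too low to be tested and overlapped, at 0.484 to 2.26 CPM in KO 0 h against 0.346 to 1 in WT 0 h. The B cell marker Cd22 was lower in KO 0 h, at 1.18 to 1.45 against 5.40 to 10.8 (log2 -2.49, edgeR adjusted p = 0.0118). The other B cell markers tested, Cd79a (0.04) and Cd79b (0.28), were not called. The summed B cell markers overlapped, at 16.8 to 28.6 CPM in KO 0 h against 21 to 29.9 in WT 0 h. The part of these markers in the differences was not tested.

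After 24 h on anti-CD3 again 0 of the 44 genes were called, beside 0.273% of all genes, 0.182% higher and 0.0911% lower, with 1 at an unadjusted p below 0.05 (7.06% of all genes) and 0 by DESeq2. The median difference was -0.0329 beside -0.00954 over all genes. The libraries did not overlap in 6 genes, or 13.6% beside 12.9% of all genes, with 2 higher in KO (5.74% of all genes) and 4 lower (7.19%), and 24 intervals lay within 0.5 of 0. Cpt1a was higher in all KO libraries, at 47.2 to 50.3 CPM against 36.3 to 39.3 (log2 0.35, 95% interval 0.01 to 0.68, edgeR adjusted p = 0.696). Idh2 was higher in all, at 20.9 to 27.6 CPM against 16.3 to 20.1 (log2 0.34, 95% interval 0.00 to 0.67, edgeR adjusted p = 0.711). Acsl3 was lower in all, at 3.23 to 7.34 CPM against 8.04 to 10.3 (log2 -0.59, 95% interval -1.21 to 0.04, edgeR adjusted p = 0.751). Etfdh was lower in all, at 15.4 to 19.6 CPM against 19.9 to 25.7 (log2 -0.32, 95% interval -0.71 to 0.06, edgeR adjusted p = 0.798). None passed, and the comparisons at 0 h and 24 h share no library.

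**Figure D5:**
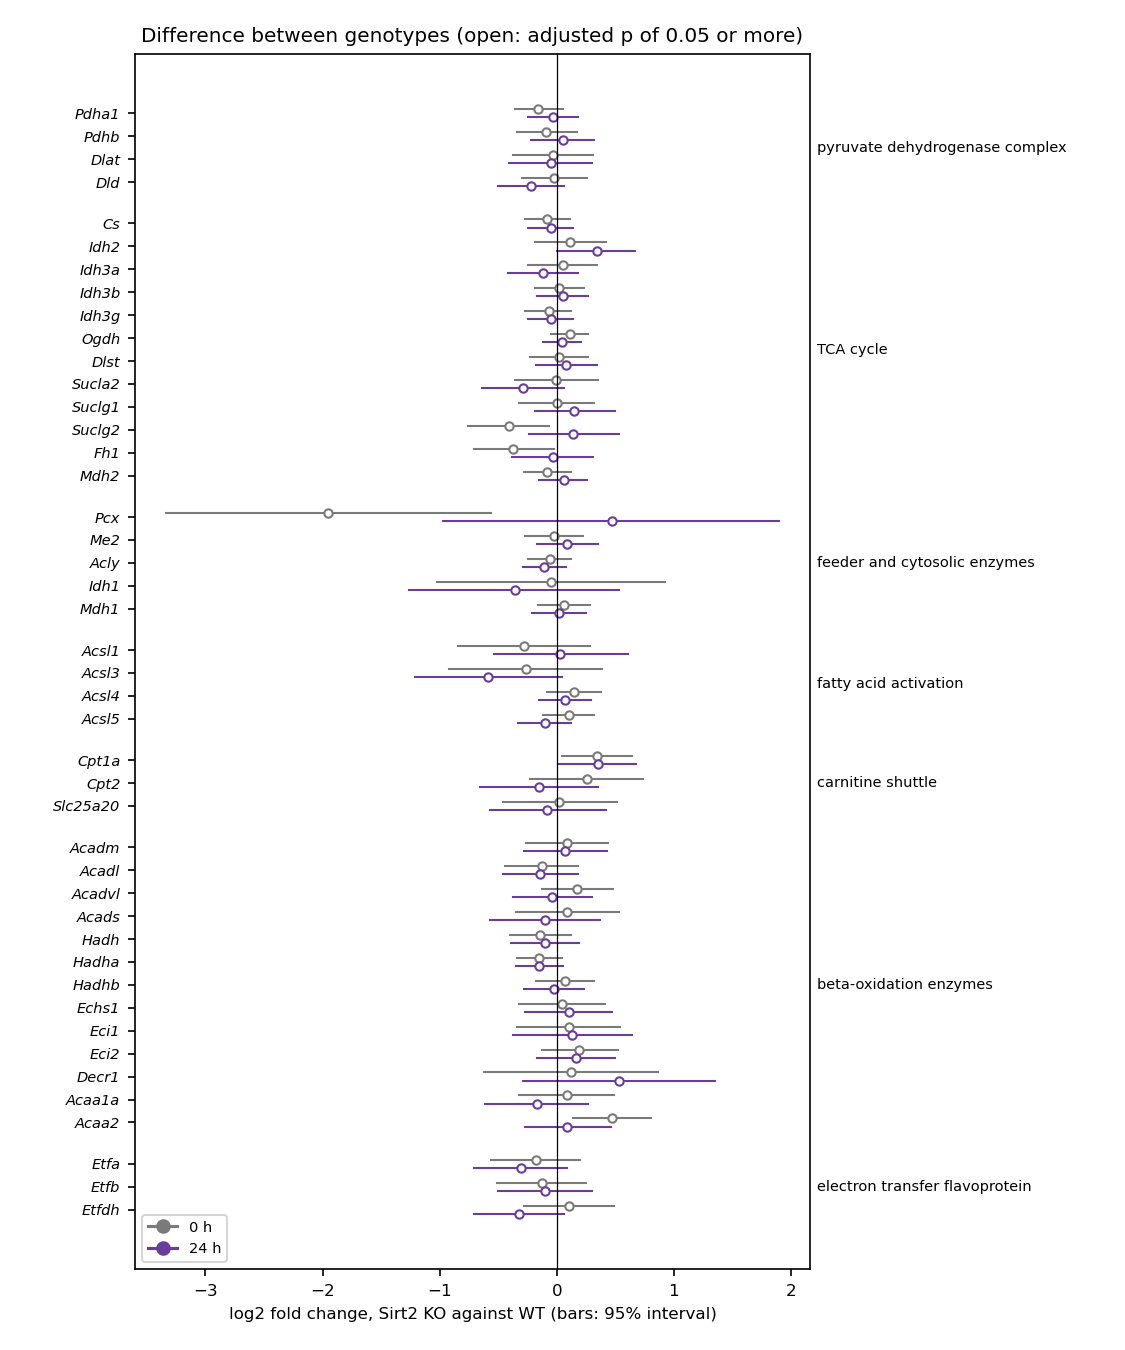
Log2 fold change of KO against WT (x axis) of each of the 44 genes (y axis, by enzyme group) at 0 h (grey) and 24 h (purple), with bars of the 95% interval. Every point is open, since 0 genes had an adjusted p below 0.05 at either time, and the widest intervals belong to the low genes Pcx, Idh1, Acsl3, Acsl1 and Decr1.

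The change with anti-CD3 was not called different between the genotypes for any of the 44 genes, beside 0.00911% of all genes (1 gene), with 2 at an unadjusted p below 0.05 (5.24% of all genes) and 0 by DESeq2. The smallest p belonged to Pcx, whose difference of changes was 2.42 (95% interval 0.41 to 4.43, edgeR adjusted p = 0.895), from levels of at most 3.98 CPM. Suclg2 had 0.56 (95% interval 0.04 to 1.07, edgeR adjusted p = 0.932), Etfdh -0.43 (-0.97 to 0.12, adjusted p = 0.996) and Acaa2 -0.37 (-0.87 to 0.12, adjusted p = 0.996). Thus the genes called over time in only one genotype, Acaa1a in KO and Sucla2, Dld, Pdhb, Dlst and Mdh2 in WT, were not shown to respond differently in the other. Each of these differences uses all 12 libraries and so shares them with the comparisons above.

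Related genes outside the 44 add the neighbouring steps. Of 8 tested genes of other TCA cycle and pyruvate enzymes, 1 rose and 0 fell in WT, and 1 rose and 2 fell in KO, or 12.5% and 37.5% called beside 40.7% and 40.4% of all genes. Pck2, the mitochondrial phosphoenolpyruvate carboxykinase, rose by 1.23 in WT and 1.15 in KO on the log2 scale (edgeR adjusted p = 9.45e-08 and 5.62e-07). The succinate dehydrogenase genes Sdhc (-0.36, adjusted p = 0.0108) and Sdha (-0.25, adjusted p = 0.0229) fell in KO and had uncalled changes of -0.21 and -0.12 in WT. Of 8 genes of pyruvate import and pyruvate dehydrogenase control, Pdk1, a kinase that inactivates the complex, fell in WT (-0.43, edgeR adjusted p = 0.00105) and Pdpr, a regulator of the phosphatase, rose (0.62, adjusted p = 0.00588), with uncalled changes of -0.15 and 0.40 in KO. The pyruvate carrier gene Mpc2 fell in KO (-0.61, edgeR adjusted p = 0.0134) and had an uncalled change of -0.30 in WT. The changes called made up 25% of these 8 genes in WT and 12.5% in KO, beside 40.7% and 40.4% of all genes. For 0 genes of these 2 lists was the difference between the genotypes' changes called (lowest edgeR adjusted p = 0.996 and 0.952). Of 9 genes of lipoylation and mitochondrial carriers 2 were called in each genotype, or 22.2% beside 40.7% and 40.4% of all genes. Both were lower, as were 20.5% of all genes in WT and 21% in KO. The oxoglutarate carrier gene Slc25a11 fell by 0.79 and 0.92 in WT and KO, and the aspartate-glutamate carrier gene Slc25a12 by 0.51 and 0.47.

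Of 18 tested other genes of fatty acid metabolism, 2 rose and 2 fell in WT, and 4 rose and 3 fell in KO, or 22.2% and 38.9% called, again no more than the 40.7% and 40.4% of all genes. The largest rise was that of Acaca, the acetyl-CoA carboxylase that makes malonyl-CoA, an inhibitor of CPT1. It measured 27.7, 30.6 and 31.8 CPM in WT 0 h and 73.9, 70.5 and 69.3 in WT 24 h (log2 1.24, SE 0.125, edgeR adjusted p = 2.05e-11), and changed by 1.54 in KO (SE 0.130, edgeR adjusted p = 1.21e-13). Slc22a5, the carnitine importer of the plasma membrane, rose by 0.73 and 1.24 (edgeR adjusted p = 0.0156 and 6.83e-05). Of 11 tested regulators, 5 rose and 1 fell in WT and 3 rose in KO. That is 54.5% and 27.3% called beside 40.7% and 40.4% of all genes, with 45.5% and 27.3% higher beside 20.2% and 19.4%. Those higher in both were Myc at 1.20 and 1.63, Hif1a at 0.63 and 0.71 and Pprc1, a coactivator related to PGC-1, at 0.55 and 0.61. Between genotypes 1 gene of these lists was called, Myc at 0 h, at 177 to 256 CPM in KO against 259 to 317 in WT (log2 -0.50, edgeR adjusted p = 0.0236).

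Promoter windows were found for 40 of the 44 genes. A GC box (GGGCGG) stood in 31 of them, or 77.5%, beside 35.7% of all 32851 promoters of the table, and a CCAAT box (CCAAT) in 22, or 55%, beside 37.4%. The other motifs searched, on both strands, were the ETS family core CCGGAAG in 5 windows (12.5% beside 8.86%), the NRF1 core GCATGCGC in 4 (10% beside 2.71%) and the E-box CACGTG in 2 (5% beside 7.15%). The letters of an estrogen-related receptor element, TCAAGGTCA, and of a PPAR direct repeat, AGGTCA and AGGTCA with 1 base between, were in 0 windows, beside 0.423% and 0.0396% of all promoters. The table of all promoters includes genes with no reads in these cells, so the shares do not set the 44 genes against other expressed genes. The shares of the 40 were also counted per gene, and those of all promoters per promoter window. GC boxes stood before genes that rose, such as Acsl4 and Sucla2, and before genes that fell, such as Cpt1a, Hadh and Suclg2.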

How the data were processed

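Per the labels' protocols, total RNA (100 ng) went into NuGen Ovation Mouse libraries with probe-based removal of ribosomal RNA. The deposited values are read counts per gene symbol, 1 table per library. The submitters' processing notes name STAR 2.6.0c, DESeq and hg19. Since hg19 is human and the symbols are murine, it is uncertain which build was counted. The strand setting or annotation is not given in the sources used here. Every table closes with 5 entries that name no gene and were left out. Reads in no feature were 22.8% to 35.4% of reads listed, ambiguous reads 0.412% to 0.576% and reads at several places 25.7% to 30.9%.

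Groups and replicate numbers came from the sample titles. Genes were kept by filterByExpr (minimum count 10, minimum total 15) and tested with edgeR 4.0.16 in R 4.3.3, by the quasi-likelihood test with TMM factors and robust dispersion and no covariate, fitting the 4 groups together. The biological coefficient of variation was 0.115. Benjamini-Hochberg adjustment ran over all 10981 genes, and genes were called below 0.05. Every adjusted p is of this kind. Intervals are the log2 change with its SE and the t quantile of the fit. Alternatives included DESeq2 1.42.0, other scalings and filters and leaving out each library. The steps were tested on simulated counts. Full values were given for up to 8 called genes per direction and comparison with a mean of 5 CPM in a group, or the 4 smallest p where none was called. The 44 genes and the related lists were chosen with earlier results of these data known, and ratios and some further genes after their values were seen. Exon overlaps and lengths came from GENCODE vM21 on GRCm38, near-identical copies were matches of at least 95% identity over 100 bases, and promoters came from RefSeq. No pair of replicates agreed within sampling noise (chi-square per gene 3.23 to 15.5).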

Additional observations from a re-analysis of the deposited data

How the results depend on the processing

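The counts of called genes stayed within 1.5 times of the reported ones under all alternatives but 1. In WT over time the count ranged from 17 to 22 under other scalings, filters, tools, fits and thresholds and from 15 to 21 with 1 library left out, and in KO from 11 to 18 and from 11 to 17. Between genotypes at 0 h it was 0 under all of the former and 0 to 1 with a library left out, the 1 being Cpt1a without KO 0 h replicate 1. At 24 h and for the interaction it was 0 throughout. Of 466 recomputed changes of the genes given in full, 458 kept their direction and their side of the threshold, 7 lost the call, 1 gained it and 0 reversed. Of the 19 genes called in WT 14 were called in every alternative, and of the 15 in KO 9. No scaling moved the median of all genes by more than 0.0638 in size, and none turned the sign of a called gene. Over all genes, the count called between genotypes moved from 38 to 24 with only the groups compared in the fit and to 59 without a filter at 0 h, from 30 to 43 without a filter at 24 h, and to 16 and 17 at an adjusted p below 0.01. With 1 library left out it was 17 to 33 at 0 h and 14 to 30 at 24 h. No pairing by replicate number was seen: the deviations of 18 same-numbered pairs correlated at -0.0884 to 0.0934, none above 0.1. Differently numbered pairs ran from -0.131 to 0.129. With 3 libraries per group these correlations cannot exclude that libraries of the same number shared a preparation or an animal. With a replicate block the counts were 19 in WT and 16 in KO over time and 0 in the comparisons of genotypes. Depth limits the low genes most: the intervals of Pcx, Idh1, Decr1 and Acsl3 were the widest.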
